A study of Danio rerio with 6 samples.

Results

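The genes described here build the coats and the entry channel of the early secretory pathway. They were chosen by the text of the best protein match that the authors list for each gene, taking every gene ID whose text names a coatomer subunit, a Sec protein of protein transport or a p24 (transmembrane emp24 domain) protein, and then selected on a total of at least 50 reads over both RNA libraries. Of 24832 gene IDs in the tables, 30 carried such text, and 28 of these had enough reads, among 13575 genes with 50 or more reads in all. The 2 left out, ENSDARG00000061806 and ENSDARG00000094417, both match the same Sec24C-like protein and had no read in either library. Nearest above the minimum was tmed4, with 188 reads over both libraries, so the minimum removed no gene with reads. The read total that set the minimum comes from the libraries compared, and the genes were grouped with results of these data already known, so the ratios between libraries are given as descriptions.

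Whole zebrafish embryos were profiled in 6 libraries, and the 2 RNA libraries are used here, 1 of normal control embryos and 1 of dnmt1 morphants, both from the 10-somite stage. Morphants are embryos that received a morpholino, an antisense oligonucleotide that lowers the product of its target, here the maintenance DNA methyltransferase gene dnmt1. The morpholino's sequence and dose, any injection of the controls, the strain and the number of embryos pooled are not stated in the labels. The other 4 libraries measured DNA methylation at 80% epiboly and were not used for these genes. The control library held 9.90 megareads assigned to genes and the morphant library 10.05 megareads. With 1 library per condition no difference has a replicate check and no test between conditions was possible. The 95% intervals on ratios are exact (Clopper-Pearson) intervals of counting error only. In RNA of whole embryos, more cells of a type and more RNA per cell cannot be told apart. The dnmt1 transcript itself had 2423 control and 3194 morphant reads, a ratio of 1.30 (1.23 to 1.37). Whether the morpholino acts on translation is not stated in the labels. If it does, the transcript ratio does not check the knockdown.

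Proteins that are secreted or set into membranes enter the endoplasmic reticulum (ER) through the Sec61 channel, leave it in vesicles coated with COPII, and COPI-coated vesicles bring escaped ER proteins and recycled receptors back from the Golgi. The p24 proteins span the membrane of these vesicles and link cargo inside to the coats outside. In zebrafish, mutants of copa, copb1 and copb2 (sneezy, happy and dopey) form a notochord that fails to mature, and mutants of sec23a and sec24d (crusher and bulldog) retain collagen inside their cartilage cells.

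Among genes matched by the rule, the morphant library held more reads for the COPI coat and for the inner layer of the COPII coat. The Sec61 channel and the most abundant p24 genes matched by the rule, tmed10 and tmed2, lay close to the control level. The 28 genes took 0.464% of the control and 0.519% of the morphant reads, a pooled ratio of 1.12 (1.104 to 1.13). The ratio was above 1 for 27 of the 28, against 54.3% of all genes with enough reads, when libraries were scaled to total reads. Under TMM scaling, which removes a general shift between libraries, 21 of 28 lay above 1, against 48.0% of all genes. Their median log2 ratio was 0.14, against 0.03 over all genes and -0.01 over the 3847 genes with 1000 or more reads. All differences were small. At least 1.2-fold higher were 11 of 28, where 21.7% of all genes passed that size, and none was 1.2-fold lower, where 15% of all genes were. At 1.5-fold, 1 gene was higher (background 6.56%) and none lower (background 3.4%).

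**Figure D1:**
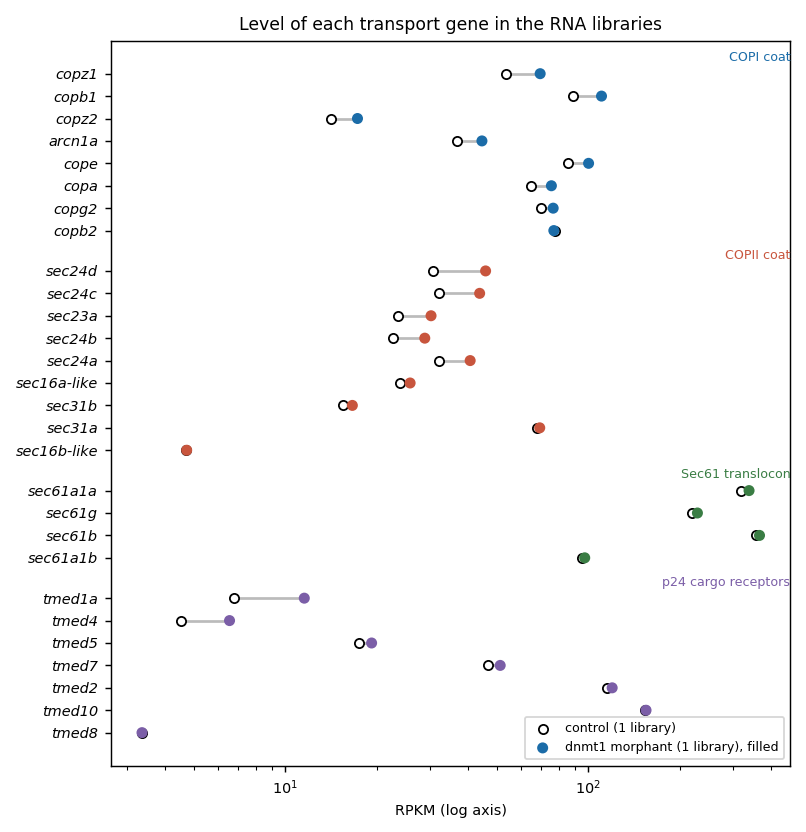
RPKM on a log axis of each of the 28 genes in the control library (open circles) and the dnmt1 morphant library (filled circles), ordered within each group by the ratio of the libraries. The Sec61 channel genes sec61b, sec61a1a and sec61g lie furthest right, between 219 and 367 RPKM, with their circles nearly on top of each other, while the circles of sec24d (30.8 and 45.8 RPKM) stand apart.

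The COPI coat is a complex of 7 kinds of subunit that the small GTPase Arf1 recruits to Golgi membranes as a whole. In zebrafish several subunits have paralogous genes. All 8 COPI genes matched by the rule were read deeply, with 12670 control and 14767 morphant reads together, a pooled ratio of 1.15 (1.12 to 1.18). The ratio was above 1 for 7 of the 8 under both total-read and TMM scaling, and copb2 was the exception. Over all genes 54.3% of ratios were above 1, or 48.0% under TMM scaling. At least 1.2-fold higher were 4 of the 8, or 2 under TMM scaling, where 21.7% and 18.8% of all genes were.

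Among the subunits of the outer COPI layer, copa (alpha-COP, ENSDARG00000004173) had 2647 control and 3135 morphant reads, or 64.7 and 75.5 RPKM. Its ratio was 1.17 (1.11 to 1.23). The beta-prime subunit gene copb2 (ENSDARG00000038743), whose protein binds the dilysine return signal of ER proteins as alpha-COP does, had 2475 and 2488 reads, or 77.7 and 76.9 RPKM. It had the lowest ratio of all 28 genes, 0.990 (0.936 to 1.05). The epsilon subunit gene cope, which completes this layer, had 628 and 746 reads, or 85.6 and 100.1 RPKM, and a ratio of 1.17 (1.05 to 1.30). within this layer the counting intervals of copa and cope did not reach that of copb2.

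The inner COPI layer resembles the adaptor complexes of clathrin coats. Its beta subunit gene copb1 (ENSDARG00000056557) had 2912 control and 3663 morphant reads, or 89.2 and 110 RPKM, the highest level of any COPI gene in both libraries. Its ratio was 1.24 (1.18 to 1.30). The small zeta subunit gene copz1 had 536 and 708 reads, or 53.3 and 69.3 RPKM, and the highest COPI ratio, 1.30 (1.16 to 1.46). Its paralog copz2 had 303 and 377 reads, or 14.1 and 17.3 RPKM, and a ratio of 1.22 (1.05 to 1.43). The delta subunit gene arcn1a had 1111 and 1360 reads, or 36.9 and 44.5 RPKM, and a ratio of 1.21 (1.11 to 1.31). The gamma subunit gene copg2 had 2058 and 2290 reads, or 69.8 and 76.5 RPKM, and a ratio of 1.096 (1.03 to 1.16). Every gene of this layer was thus higher in the morphant library, with copg2 nearest to the control level.

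Once paralogs were added together, the 7 kinds of COPI subunit had similar levels per transcript length. In the control library zeta-COP (copz1 and copz2) summed to 67.4 RPKM, with copz1 giving 79.1% of it. For delta-COP the rule matched only arcn1a, and its paralog arcn1b, looked up after values were seen, had 746 and 963 reads and a ratio of 1.27 (1.15 to 1.40). The delta-COP genes summed to 64.3 RPKM in the control, which placed delta-COP lowest and beta-COP, at 89.2 RPKM, highest of the subunits. In the morphant library delta-COP summed to 79.3 RPKM, zeta-COP to 86.6 RPKM and copz1 gave 80.0% of zeta-COP. With copb2 at 76.9 and copa at 75.5 RPKM there, the subunits lay between 75.5 and 110 RPKM. RPKM depends on the listed gene length, and the order of subunits this close together rests on 1 library each.

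COPII coats assemble at ER exit sites that the Sec16 proteins organise. The GTPase Sar1 recruits the inner layer of Sec23 and Sec24, in which Sec24 reads the sorting signals of cargo, and an outer cage of Sec13 and Sec31 then bends the membrane. The 9 COPII genes with reads had 12246 control and 15031 morphant reads, a pooled ratio of 1.21 (1.18 to 1.24). Among the genes matched by the rule, the layers had different ratios. The 5 inner coat genes had a pooled ratio of 1.32 (1.28 to 1.37), the 2 Sec31 cage genes 1.03 (0.990 to 1.08) and the 2 Sec16-like genes 1.07 (0.987 to 1.16). The inner coat interval did not overlap either of the others, and this splitting of the coat into layers was made with the values known. The contrast holds only for genes matched by the rule. Of genes outside it, given below, inner coat sec23b had 1.19 (1.12 to 1.26) and cage sec13 1.17 (1.07 to 1.27), with overlapping intervals.

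The cargo adaptor gene sec24d (ENSDARG00000045946) had 999 control and 1509 morphant reads, or 30.8 and 45.8 RPKM. Its ratio of 1.49 (1.37 to 1.61) was the highest of the coat genes and above that of 93.2% of all genes with enough reads. Its close relative sec24c (ENSDARG00000060575) had 1741 and 2411 reads, or 32.1 and 43.8 RPKM, and a ratio of 1.36 (1.28 to 1.45). In vertebrates sec24c and sec24d form a branch of the Sec24 family apart from sec24a and sec24b. The gene sec24b had 979 and 1270 reads, or 22.6 and 28.8 RPKM, and a ratio of 1.28 (1.17 to 1.39). The gene sec24a (ENSDARG00000053439) had 2197 and 2819 reads, or 32.2 and 40.7 RPKM, and a ratio of 1.26 (1.19 to 1.34). All 4 Sec24 genes were thus higher in the morphant library. The interval of sec24d overlapped those of sec24b and sec24c but not that of sec24a.

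The value of sec24a is uncertain. Reads covered only 56.3% of its listed 6886 bases in the control library and 57.1% in the morphant one, and the authors' annotation of this gene ID also lists a strong match to the RNA helicase gene ddx46, so its reads may belong to more than sec24a. Without it the inner coat had a pooled ratio of 1.35 (1.30 to 1.40). All 4 Sec24 genes had similar levels per length. Their shares of the summed Sec24 RPKM were 27.4% for sec24a, 19.2% for sec24b, 27.3% for sec24c and 26.2% for sec24d in the control library. In the morphant library the shares were 25.6%, 18.1%, 27.5% and 28.8% in the same order, with the family sum at 159 RPKM against 118 in the control. In RPKM, sec24d ranked behind sec24a and sec24c in the control library and ahead of both in the morphant library, among values that lie close together.

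The Sec23 gene matched by the rule, sec23a (ENSDARG00000016636), encodes the subunit that speeds up GTP hydrolysis by Sar1. It had 1296 control and 1692 morphant reads, or 23.5 and 30.2 RPKM, and a ratio of 1.29 (1.19 to 1.38). Its paralog sec23b was named differently in the authors' text and was looked up after values were seen. It had 2007 and 2421 reads, or 64.7 and 76.9 RPKM, and a ratio of 1.19 (1.12 to 1.26). Most Sec23 transcript was therefore sec23b, which gave 73.3% of the summed Sec23 RPKM in the control library and 71.8% in the morphant one.

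In the outer cage, sec31a (ENSDARG00000021082) had 2957 control and 3066 morphant reads, or 67.7 and 69.1 RPKM, and a ratio of 1.02 (0.970 to 1.07). Its paralog sec31b had 960 and 1048 reads, or 15.5 and 16.6 RPKM, and a ratio of 1.07 (0.984 to 1.17). Under TMM scaling the direction of sec31a flips to just below 1. The other cage gene, sec13, which also serves in nuclear pores, was outside the rule and was looked up after values were seen. It had 1065 and 1261 reads, or 73.0 and 85.2 RPKM, and a ratio of 1.17 (1.07 to 1.27). 

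The exit site scaffold was represented by a gene matching Sec16A (ENSDARG00000063300; plotted as sec16a-like), with 968 and 1064 reads, 23.8 and 25.8 RPKM and a ratio of 1.08 (0.991 to 1.18). A gene matching Sec16B (ENSDARG00000052046; plotted as sec16b-like) had 149 and 152 reads, 4.70 and 4.72 RPKM, and a ratio of 1.004 (0.796 to 1.27). Both intervals include 1, and TMM and median-of-ratios scaling place the Sec16B-like gene just below 1.

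**Figure D2:**
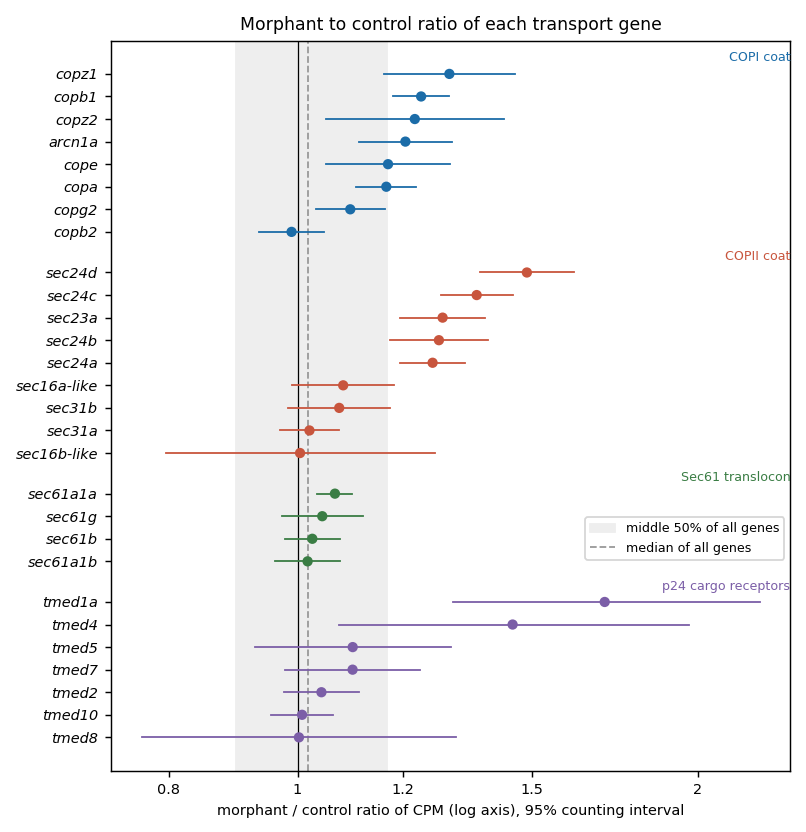
Morphant to control ratio of CPM (log axis) of each of the 28 genes with its 95% counting interval, over a grey band for the middle 50% of all genes with 50 or more reads and a dashed line at their median. The 5 inner COPII genes, from 1.26 for sec24a to 1.49 for sec24d, lie to the right of the band. So do copz1, copb1, copz2, arcn1a, tmed1a and tmed4, with cope at the edge of the band. The Sec61 genes lie near the middle of the band.

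The Sec61 channel is a complex of alpha, beta and gamma subunits through which growing proteins cross the ER membrane. The levels of sec61b, sec61a1a and sec61g were the highest of the 28 genes, and the channel genes had the smallest spread of ratios of the 4 groups, from 1.02 to 1.07. This is also the smallest group, and each of its genes had 3154 or more reads over both libraries. The alpha subunit gene sec61a1a (ENSDARG00000021669) had 8121 control and 8800 morphant reads, or 318 and 339 RPKM, and a ratio of 1.07 (1.04 to 1.1). Its paralog sec61a1b had 2415 and 2496 reads, or 95.6 and 97.2 RPKM, and a ratio of 1.02 (0.962 to 1.08). Of the summed alpha-subunit RPKM, sec61a1a gave 76.9% in the control library and 77.7% in the morphant one, so the balance of the paralogs was nearly the same in both.

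The beta subunit gene sec61b had 3428 and 3572 reads, or 358 and 367 RPKM, the highest level of any of the 28 genes, and a ratio of 1.03 (0.979 to 1.08). The gamma subunit gene sec61g had 1531 and 1623 reads and a ratio of 1.04 (0.973 to 1.12). Reads of sec61g covered only 13.5% of its listed 705 bases in each library, so its level of 219 and 229 RPKM rests on a short stretch of the gene model. The pooled ratio of the 4 genes was 1.05 (1.03 to 1.07), below and not overlapping the intervals of both coats. Under TMM scaling 2 of the 4, sec61a1b and sec61b, fall just below 1.

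Of the 7 genes that the rule's text placed in the p24 group, the delta-type gene tmed10 and the beta-type gene tmed2 were the most abundant. The gene tmed10 (ENSDARG00000041391) had 2657 control and 2720 morphant reads, or 154 and 155 RPKM, and a ratio of 1.01 (0.955 to 1.06). The gene tmed2 had 1809 and 1915 reads, or 115 and 120 RPKM, and a ratio of 1.04 (0.977 to 1.11). Both were near the control level, and TMM and median-of-ratios scaling turn tmed10 to just below 1.

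The gamma-type gene tmed7 had 546 and 610 reads, or 46.5 and 51.2 RPKM, and a ratio of 1.1 (0.978 to 1.24), and tmed5, of the same type, had 264 and 295 reads, or 17.5 and 19.3 RPKM, and a ratio of 1.1 (0.929 to 1.30). The widest differences were in genes with few reads. The gamma-type gene tmed1a (ENSDARG00000031325) had 92 and 159 reads, or 6.78 and 11.5 RPKM, and a ratio of 1.70 (1.31 to 2.22), the only one of the 28 past 1.5-fold. The alpha-type gene tmed4 had 76 and 112 reads, or 4.51 and 6.54 RPKM, and a ratio of 1.45 (1.07 to 1.97). The gene tmed8, grouped here by text alone and assigned none of these types, was the least abundant of all. It had 110 and 112 reads, or 3.36 RPKM in each library. Its ratio was 1.002 (0.764 to 1.32), which turns to below 1 under TMM and median-of-ratios scaling. The pooled p24 ratio was 1.05 (1.01 to 1.09).

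Further p24 genes that the rule's text missed were looked up after values were seen. The alpha-type gene tmed9 had 2004 and 2452 reads, or 101 and 121 RPKM, and a ratio of 1.205 (1.14 to 1.28). The gamma-type gene tmed3 had 229 and 276 reads and a ratio of 1.19 (0.992 to 1.42). The paralog of tmed1a lay on the other side of 1, where tmed1b had 397 and 345 reads, or 9.31 and 7.96 RPKM, and a ratio of 0.856 (0.738 to 0.991). Both directions thus occurred among the p24 genes, without a test.

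**Figure D3:**
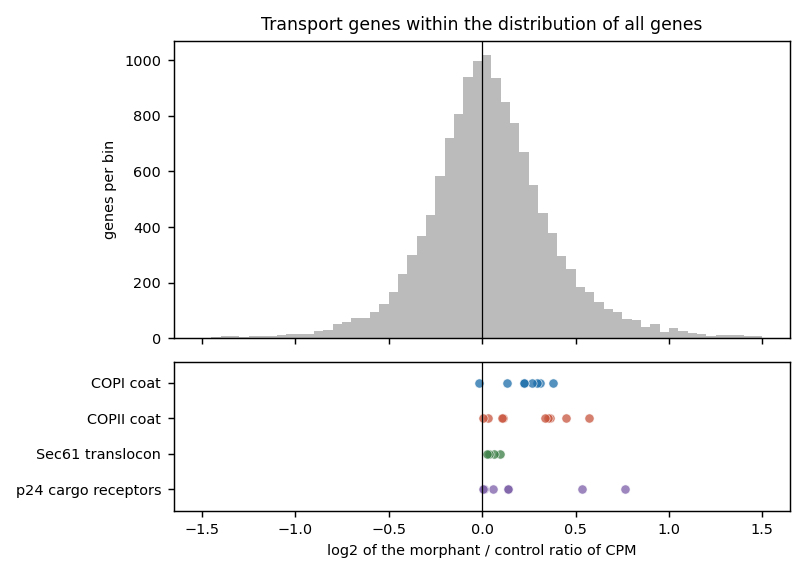
Number of genes per bin of 0.05 on the log2 scale of the morphant to control ratio of CPM (top, genes with 50 or more reads; 103 genes lie outside the plotted range) and the ratios of the 28 genes by group (bottom, 1 point a gene). The translocon points cluster near 0, the COPI points lie mostly between 0.13 and 0.38, and the COPII points fall into a set near 0 and a set above 0.33.

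Properties of the reads were compared beside these ratios. The median ratio of the 3393 genes longer than 3487 bases in the tables was 0.996. To them belong sec23a, sec24a, sec24b and sec24c, and also copa, sec31a, sec31b and the Sec16A-like gene. Among genes with 1000 or more reads, 8.94% were at least 1.2-fold higher in the morphant library. The 5 inner coat genes all have more than 1000 reads over both libraries. So do all other members except copz2, the Sec16B-like gene, tmed1a, tmed4, tmed5 and tmed8. The part of length and depth in the ratios was not tested. The covered share of the listed length differed most for tmed1a, 71.2% in the control library and 91.2% in the morphant one, and next for tmed2, 90.8% and 95.4%, with smaller differences for the other 26 genes.

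Genes that work beside the coats were described from lists of the pathway chosen with earlier results of these data known. Of 13 regulators of Arf and COPI, 9 were matched with enough reads. They had 7 ratios above 1 (6 under TMM scaling), where 54.3% of all genes were above 1 (48.0% under TMM scaling), and a median log2 ratio of 0.18. At least 1.2-fold higher was 1 of the 9 and 1 was lower, where 21.7% and 15% of all genes were. The Arf activator gene gbf1 had 484 and 607 reads and the highest ratio of the list, 1.23 (1.09 to 1.39). The most abundant by RPKM, the Arf gene arf2b, had 2347 and 2696 reads and a ratio of 1.13 (1.07 to 1.196), while arf1 had 3564 and 3509 reads and 0.969 (0.925 to 1.02).

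Of 29 partners and cargo receptors of COPII and the Golgi-ER cycle, 26 were matched with enough reads. Of these, 19 had a ratio above 1 (17 under TMM scaling), where 54.3% of all genes did (48.0% under TMM scaling). The median log2 ratio of the 26 was 0.10. At least 1.2-fold higher were 7 of 26 against 21.7% of all genes, and none was lower against 15%. None was past 1.5-fold, where 6.56% of all genes were higher and 3.4% lower. The SNARE gene bet1, needed for fusion of ER-derived vesicles, had 108 and 163 reads and the highest ratio, 1.49 (1.16 to 1.91). The KDEL receptors, which return ER proteins by COPI vesicles, were all 3 higher: kdelr2b had 814 and 1099 reads (1.33, 1.21 to 1.46), kdelr2a 2960 and 3525 (1.17, 1.12 to 1.23) and kdelr3 142 and 183 (1.27, 1.01 to 1.59). The cargo receptor genes surf4 and surf4l had ratios of 1.32 (1.07 to 1.62) and 1.30 (1.17 to 1.44), and tfg, the most abundant gene of the list, a component of exit sites, 1.22 (1.15 to 1.28).

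Not all COPII partners lay high. The coat-initiating GTPase gene sar1b had 1749 and 1823 reads, 87.3 and 89.6 RPKM, and a ratio of 1.03 (0.961 to 1.096) that TMM scaling places just below 1, and its exchange factor gene preb 185 and 216 reads and 1.15 (0.940 to 1.41). The collagen export receptor gene mia3 had 1876 and 1722 reads and a ratio of 0.904 (0.846 to 0.965), and the lectin gene lman2 1223 and 1089 and 0.877 (0.807 to 0.952). The lowest was the SNARE gene sec22bb, with 127 and 111 reads and 0.861 (0.661 to 1.12).

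Of the 19 genes of ER entry, all were matched with enough reads, with a median log2 ratio of 0.12. The ratio was above 1 for 13 under both total-read and TMM scaling, where 54.3% and 48.0% of all genes were. At least 1.2-fold higher were 4 of 19, and 2 were lower, where 21.7% and 15% of all genes were. Among subunits of the translocon-associated complex, which sits beside Sec61, ssr1 had 1760 and 2354 reads, 201 and 265 RPKM, and a ratio of 1.32 (1.24 to 1.40), ssr2 1.36 (1.27 to 1.47) and ssr4 1.28 (1.19 to 1.38), while ssr3 had 784 and 795 reads and 0.998 (0.903 to 1.103). A further gene ID named ssr3, below the read minimum, had 0 control and 27 morphant reads. The genes sec62 and sec63, which assist Sec61 in translocation after translation, had ratios of 0.897 (0.828 to 0.972) and 1.09 (0.998 to 1.18). The signal peptidase subunit gene spcs2 was the only gene of the list past 1.5-fold, lower in the morphant library with 806 and 523 reads and a ratio of 0.639 (0.571 to 0.714), whereas its partner gene spcs3 had 439 and 566 reads and 1.27 (1.12 to 1.44).

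The list of the unfolded protein response and ER chaperones had a median near that of all genes. Of 25 genes 21 were matched with enough reads. Of these, 12 had a ratio above 1 when scaled to total reads and 9 under TMM scaling, where 54.3% and 48.0% of all genes did. The median log2 ratio was 0.02, with 3 of 21 at least 1.2-fold higher and 3 lower, where 21.7% and 15% of all genes were. The chaperone gene hspa5 was not matched. The transcription factor gene xbp1 had 3186 and 3277 reads and a ratio of 1.01 (0.964 to 1.06), ddit3 93 and 97 reads and 1.03 (0.765 to 1.38), with the xbp1 and ddit3 ratios lying just below 1 under TMM scaling. The stress sensor gene ern1 had 681 and 543 reads and 0.785 (0.700 to 0.880). The co-chaperone gene dnajb9a, a target of the Xbp1 branch, was the only one past 1.5-fold, with 123 and 52 reads and a ratio of 0.416 (0.295 to 0.580). The gene creb3l2, whose zebrafish mutant feelgood has low expression of COPII genes in cartilage, had 274 and 360 reads, 12.5 and 16.1 RPKM, and a ratio of 1.29 (1.102 to 1.52). Its relative creb3l3b had the highest ratio of the list, 181 and 275 reads and 1.496 (1.24 to 1.81), and creb3l1 237 and 255 reads and 1.06 (0.884 to 1.27). A further relative, creb3l3a, lay below 1, with 835 and 773 reads and 0.911 (0.825 to 1.006). The most abundant genes of the list by RPKM, atf4a and the chaperone gene canx, had ratios of 0.938 (0.896 to 0.982) and 0.884 (0.860 to 0.909).

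**Figure D4:**
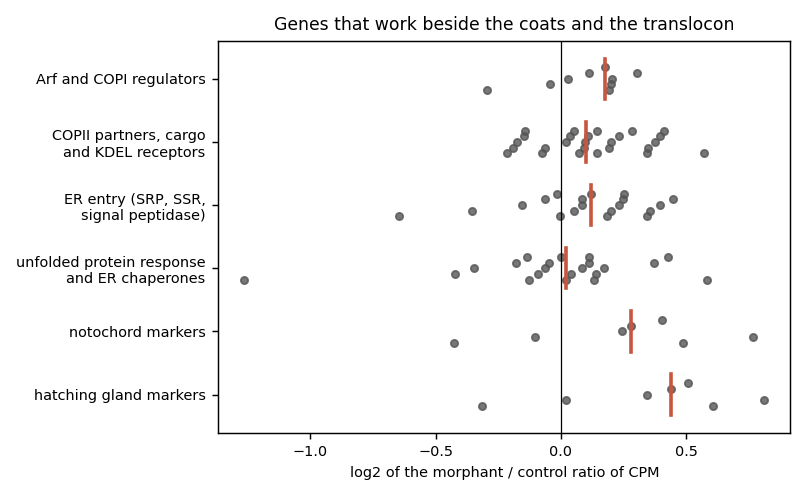
Log2 of the morphant to control ratio of CPM of each gene with 50 or more reads in 6 lists of related genes (points, offset vertically to separate them) with the median of each list (coloured bar); xbp1 is in 2 lists. The unfolded protein response list is centred near 0, dnajb9a lies furthest left and spcs2 furthest left among the ER entry genes.

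Markers of 2 tissues of the embryo that secrete much protein had ratios on both sides of 1. Over all genes 54.3% of ratios were above 1, or 48.0% under TMM scaling. Of 8 notochord markers 7 had enough reads and 5 had a ratio above 1 under either scaling, and their summed level was 162 RPKM in control and 198 RPKM in morphant RNA. In this list the collagen genes col2a1a (1716 and 2962 reads) and col8a1a (986 and 1402 reads) had ratios of 1.70 (1.60 to 1.80) and 1.40 (1.29 to 1.52), the notochord regulators noto and tbxta 0.744 (0.565 to 0.978) and 0.930 (0.855 to 1.01). The remaining markers were shha at 1.21 (1.05 to 1.40), ihhb at 1.32 (0.798 to 2.22) and col9a1b at 1.18 (0.982 to 1.42). Of the hatching gland markers, 7 gene IDs had enough reads, 2 of them for ctslb, and 6 had a ratio above 1 (5 under TMM scaling), with a summed level of 482 RPKM in control and 588 RPKM in morphant RNA. The hatching enzyme gene he1.1 had 1012 and 1564 reads and a ratio of 1.52 (1.40 to 1.65), the 2 ctslb IDs 1.76 (1.46 to 2.11) and 1.42 (1.27 to 1.59), and the regulator klf17 0.804 (0.731 to 0.885). No marker of either list was at 0 in a library. The part of these tissues in the coat gene ratios was not tested.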

How the data were processed

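RNA of whole embryos was profiled in 1 control and 1 dnmt1 morphant library. TopHat2, BWA, HTSeq 0.6.1 and MACS2 are named in the submitters' processing notes with no role for each; no source used here names a genome build, so no positions are given. The deposited tables hold unique read counts per Ensembl gene (not normalized), RPKM, the covered fraction of each gene and its length, per the file headers. RPKM deposited by the authors equal the counts divided by length and table total. A dash was read as 0. Rows with the same gene ID (376 of 25022) were added up, leaving 24832 IDs. No row lacked a gene ID.

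Members were found by text search in the authors' protein match. Symbols came from an Ensembl ID table and from RefSeq (GRCz12tu) genes of the listed protein or KEGG ID, for 20431 IDs. Whether counting used strand is not stated, so overlapping genes cannot be told apart, and paralogs may share reads.

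Ratios are of CPM, counts scaled to total reads, without a prior, and percent shares are of the deposited counts or RPKM. Log2 ratios came from edgeR 4.0.16 (R 4.3.3) with a prior count of 2, over the whole table. Intervals (95%, exact) cover counting error only and treat reads as independent. Reads are not independent molecules, so the intervals may be too narrow even for counting error. With 1 library per group there is no test, and sizes of 1.2-fold and 1.5-fold stand in for it. The members, groups and lists were chosen with earlier results of these data known. Every COPI gene is named. In the other groups the rule names the highest and lowest ratios and levels and each gene past 1.5-fold, and here all genes are given. From each list it names genes past 1.5-fold, or else the highest and lowest ratio, and the most abundant gene; further list genes were chosen after their values were seen. The gene that this rule names for 1 list is not reported here. The interval calculation was run on simulated counts with Poisson error only, which is the error that the interval assumes. There 94.3% of 2199 intervals held the true ratio, in a table of 13402 genes. This run says nothing about variation between embryos or libraries. Alternatives were TMM and median-of-ratios scaling, a prior count of 0.5, RPKM with a pseudocount of 1, other read minimums and sizes, only the first row of each ID, only members whose symbol and text agree, and leaving out the member with most reads. Other steps used pandas 2.3.3, numpy 2.4.6, matplotlib 3.10.9 and SciPy 1.17.1 in Python 3.11.15. DNA methylation peak lists were not used, and protein and promoter sequences were not analysed here.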

Additional observations from a re-analysis of the deposited data

How the results depend on the processing

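The medians and pooled ratios of the COPI, COPII, translocon and p24 groups kept their direction under the alternatives run, and none of the 28 single-gene log2 ratios left its counting interval under TMM scaling or a prior count of 0.5, although ratios near 1 crossed it as stated beside them. TMM scaling lowered every morphant value by 1.03-fold and took the median log2 ratio of all genes from 0.03 to -0.01. It lowered the median log2 ratio to 0.21 for COPI, 0.30 for COPII, 0.0095 for the translocon and 0.10 over all 28 genes. The pooled ratios fell in the same order to 1.116, 1.176, 1.019 and 1.088. Each lay below the lower end of its counting interval, 1.1205, 1.180, 1.025 and 1.104, so for these the shift under TMM scaling exceeded counting error. The pooled p24 ratio fell to 1.021, which lay inside its interval (1.01 to 1.09). Of 66 alternatives for group values and member counts, 15 moved past the limit set, and 0 of 56 did for single genes. The limit was counting error for ratios and 1.5-fold for counts. For a group's median it was the counting error of the pooled reads. Intervals of single genes are mostly wider and fewer kinds of alternative were run for them, so these counts cannot be compared. Median-of-ratios scaling gave a median of 0.12 and a pooled ratio of 1.103 over all 28. Of these, 24 were above 1, where 51.1% of all genes were. Leaving out the gene with most reads gave a pooled ratio of 1.12 for COPI (without copb1) and 1.27 for COPII (without sec31a). The 25 genes whose symbol and text agree had a median log2 ratio of 0.22. At 1.2-fold 11 genes were higher, where 21.7% of all genes were, and 9 under TMM scaling, where 18.8% were. At 2-fold 0 were higher, a size for which no share of all genes was taken. None of these counts comes with a test by any tool. No paired analysis was possible because each RNA group has 1 library and no result comes from a test. Counting depth limits tmed1a, tmed4, tmed8 and the Sec16B-like gene most.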

Other observations

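Annotation terms of the authors' tables, looked up after the results were seen, hold genes of membrane traffic beside the 28. Genes of the lists and looked-up genes given above were not left out, so some are counted again here. Among them are arf1 in COPI coating, preb in COPII vesicle coating and dnajb9a in protein folding. Over all genes the median log2 ratio was 0.03, 54.3% of ratios were above 1, 21.7% of genes were higher by 1.2-fold or more, and 15% were lower by that size. The nearest terms, with the 28 genes left out, differed from each other. COPII vesicle coating held 5 others with a median log2 ratio of 0.00, 3 above 1 and none 1.2-fold higher or lower. COPI coating of Golgi vesicles held 6 others with a median of 0.29, 5 above 1, 4 at least 1.2-fold higher and none lower. Intra-Golgi vesicle transport held 13 others with a median of 0.20, 11 above 1, 6 at least 1.2-fold higher and none lower. Golgi to ER retrograde transport held 17 others with a median of 0.25, 11 above 1, 8 at least 1.2-fold higher and 2 lower, the lowest with a ratio of 0.478. ER to Golgi transport held 36 others with a median of 0.08, 26 above 1, 8 at least 1.2-fold higher and 2 lower, so its share past 1.2-fold higher was near that of all genes.

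Terms of steps further from the coats held 0 of the 28 genes, and some had medians near the 0.14 of the 28. Of all genes 54.3% were above 1, 21.7% at least 1.2-fold higher and 15% lower. Post-Golgi transport had a median log2 ratio of 0.16 over 34 genes with 27 above 1, 10 at least 1.2-fold higher and 2 lower. Endosome to Golgi transport had 0.17 over 21 with 17 above 1, 7 higher and 2 lower. Its pooled ratio was 1.01 (0.977 to 1.04). Exocytosis had 0.01 over 26 genes with 14 above 1, 4 higher and 3 lower, and endocytosis 0.13 over 70 with 50 above 1, 19 higher and 5 lower. Protein folding had 0.08 over 104 genes with 65 above 1, 19 higher and 14 lower. Response to unfolded protein had 0.00 over 21 genes with 11 above 1, 5 higher and 3 lower. These terms share genes with each other and with the lists given above, and no term was tested.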
